A study of Homo sapiens with 4 samples.

Results

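New intergenic peaks are stretches of DNA that carried methyl-CpG pulldown signal in HEK293 cells given a wild type DNMT3A effector, that the authors listed as new against untreated cells, and that lie away from genes. They were taken as the rows of the deposited list of new peaks on chromosomes 1 to 22 whose interval lay outside the body of every protein-coding and lncRNA gene of GENCODE 44 on hg19 and more than 2000 bp from every annotated transcript start. This gave 820 peaks of 12667 on these chromosomes, out of 12864 in the whole list. The measured values did not enter the rule. The remaining peaks comprised 10031 within 2000 bp of a transcript start of a protein-coding gene, called coding start here, 890 within 2000 bp of another start only, and 926 in gene bodies.

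HEK293 is an established human embryonic kidney cell line. The WT cells received dCas9 with a SunTag array (dCS), a single-chain antibody that binds the SunTag and carries the catalytic parts of wild type DNMT3A and of DNMT3L (Ab-3A3L), and an sgRNA against the ISG15 promoter, all from transiently transfected plasmids, and were sorted 3 days after transfection. Untreated cells and cells with K844E or R887E in the DNMT3A part, both mutants with the same dCS and sgRNA, made up the other conditions. Each of the 4 conditions had 1 library, so no difference below has a replicate check, and the other 3 libraries were not analyzed here. The intervals below are 95% exact binomial intervals and cover counting error only.

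DNMT3A adds methyl groups to CpG sites, and DNMT3L stimulates it. CpG islands are stretches of DNA rich in CpGs that mostly stay free of methylation in normal cells. Many of them lie at promoters, and those remote from annotated starts are often called orphan islands. Many orphan islands are known to act as promoters or enhancers in some tissue or developmental stage. Outside islands, CpGs are sparse and mostly methylated, except in repeats such as the Alu elements, short interspersed elements of primates that are rich in CpGs and are usually methylated in somatic cells. In MBD-seq, sheared DNA is captured with MBD2, a protein that binds methylated CpGs, and captured DNA needs both methylation and several CpGs.

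The 200 bp around the summit of the 5 intergenic peaks with the highest fold over background are given first, to show the CpGs they held. They were read from the plus strand of hg19 and are named by the nearest protein-coding gene, with CpGs in capitals. All of these peaks overlapped a CpG island, and the 200 bp held 16 CpGs near RRAS2, 27 near PPIAL4H, 22 near NAV2, 26 near RP11-685N3.1 and 17 near HMGA2.
RRAS2, chr11:14402667-14402866: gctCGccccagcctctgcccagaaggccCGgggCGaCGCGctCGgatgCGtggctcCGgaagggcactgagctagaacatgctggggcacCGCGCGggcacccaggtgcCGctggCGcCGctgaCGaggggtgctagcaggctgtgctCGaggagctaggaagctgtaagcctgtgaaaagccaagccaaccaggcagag
PPIAL4H, chr1:148176484-148176683: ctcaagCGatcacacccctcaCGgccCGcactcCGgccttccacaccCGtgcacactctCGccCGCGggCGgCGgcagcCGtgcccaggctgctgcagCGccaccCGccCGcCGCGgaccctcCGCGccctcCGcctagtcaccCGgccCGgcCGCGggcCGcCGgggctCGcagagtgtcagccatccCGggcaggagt
NAV2, chr11:19367955-19368154: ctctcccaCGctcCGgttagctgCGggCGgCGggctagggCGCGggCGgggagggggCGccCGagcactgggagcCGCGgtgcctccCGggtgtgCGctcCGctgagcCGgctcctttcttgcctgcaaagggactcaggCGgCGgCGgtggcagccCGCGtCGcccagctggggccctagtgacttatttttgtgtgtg
RP11-685N3.1, chr2:90449606-90449805: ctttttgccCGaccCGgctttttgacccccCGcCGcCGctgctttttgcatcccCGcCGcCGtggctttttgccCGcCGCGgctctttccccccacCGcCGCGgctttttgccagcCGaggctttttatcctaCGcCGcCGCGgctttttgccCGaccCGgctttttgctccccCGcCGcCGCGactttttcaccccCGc
HMGA2, chr12:66122988-66123187: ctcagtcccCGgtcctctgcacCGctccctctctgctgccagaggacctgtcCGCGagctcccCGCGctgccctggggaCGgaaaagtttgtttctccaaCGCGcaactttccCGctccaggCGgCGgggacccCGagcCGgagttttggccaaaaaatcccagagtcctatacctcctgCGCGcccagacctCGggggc

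Intergenic peaks outside CpG islands could also be dense in CpGs over a short stretch. The next 3 sequences belong to the members outside islands with the highest fold, again from the plus strand of hg19 with CpGs in capitals. They held 17 CpGs near SMIM23, 24 near MDGA1 and 21 near LMX1A.
SMIM23, chr5:171095040-171095239: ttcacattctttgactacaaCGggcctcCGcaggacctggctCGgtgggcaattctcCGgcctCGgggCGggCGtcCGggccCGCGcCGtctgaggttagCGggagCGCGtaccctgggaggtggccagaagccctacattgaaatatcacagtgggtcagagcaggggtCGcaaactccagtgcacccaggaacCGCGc
MDGA1, chr6:37592810-37593009: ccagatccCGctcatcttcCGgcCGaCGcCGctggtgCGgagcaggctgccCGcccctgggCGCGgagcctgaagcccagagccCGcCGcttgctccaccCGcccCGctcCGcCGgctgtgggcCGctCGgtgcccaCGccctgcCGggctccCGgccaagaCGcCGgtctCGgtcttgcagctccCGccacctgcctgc
LMX1A, chr1:165345311-165345510: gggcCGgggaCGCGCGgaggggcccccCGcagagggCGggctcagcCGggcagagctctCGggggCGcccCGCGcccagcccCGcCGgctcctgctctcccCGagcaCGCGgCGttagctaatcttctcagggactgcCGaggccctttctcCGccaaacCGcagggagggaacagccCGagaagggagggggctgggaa

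The last 4 sequences, written in the same way, show the repeats among the members. The first is the member farthest from a coding start and consists of imperfect copies of a short CpG-rich unit, with 35 CpGs in 200 bp. The second is the member with the lowest CpG density, with 6 CpGs. The third had the most fragments of all members and, like the second, is built from the GGAAT unit known from satellite DNA near centromeres. The last is a tandem repeat. The third was chosen for display after its values were seen.
Farthest from a coding start, chr2:92231076-92231275: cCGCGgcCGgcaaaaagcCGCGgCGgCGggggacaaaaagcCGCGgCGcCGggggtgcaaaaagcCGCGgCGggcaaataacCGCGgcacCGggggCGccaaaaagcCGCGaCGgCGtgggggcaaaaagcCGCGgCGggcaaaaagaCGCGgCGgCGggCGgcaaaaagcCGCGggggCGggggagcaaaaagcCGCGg
Lowest CpG density, chr10:38816652-38816851: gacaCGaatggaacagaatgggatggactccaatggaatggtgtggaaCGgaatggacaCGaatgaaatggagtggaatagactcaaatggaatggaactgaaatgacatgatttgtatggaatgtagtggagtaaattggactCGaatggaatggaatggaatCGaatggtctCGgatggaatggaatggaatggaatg
GGAAT repeat with the most fragments, chr10:42596952-42597151: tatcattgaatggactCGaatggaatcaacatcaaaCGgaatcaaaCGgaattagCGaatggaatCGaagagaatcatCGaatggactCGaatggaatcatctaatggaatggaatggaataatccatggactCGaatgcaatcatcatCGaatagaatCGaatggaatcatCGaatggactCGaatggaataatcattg
Tandem repeat, chr7:155940832-155941031: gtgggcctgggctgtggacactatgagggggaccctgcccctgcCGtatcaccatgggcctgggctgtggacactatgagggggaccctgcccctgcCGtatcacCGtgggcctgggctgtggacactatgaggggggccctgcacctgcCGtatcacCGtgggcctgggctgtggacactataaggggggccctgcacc

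The signal of a member was read from the list as the number of fragments at its summit and the background rate, in fragments, that the peak caller set against it, both recovered from the listed fold and p-value. The fold is the first number plus 1, divided by the second plus 1. The sources do not state what the background was. That it came from the untreated library is an inference from the values. Under it, a high rate means that a region or the sequence around it had fragments in untreated cells too. Members had a median of 19 fragments (range 7 to 416) over a median background rate of 1.92 (0.611 to 285.9). Their median fold was 5.86, with an interquartile range of 3.97 to 8.07 and a range of 1.45 to 21.8. The other new peaks had a median of 17 fragments over a rate of 0.878 and a median fold of 7.496. Members thus had the lower fold with slightly more fragments, over a higher background. Peaks in gene bodies were like the members in this, with a median fold of 5.78 and 19 fragments over a rate of 2.11. The background was at the lowest, genome-wide rate of 0.611 for 116 of 820 members (14.1%, 11.8 to 16.7%) and for 30.1% of the other peaks (29.3 to 31.0%). A rate of at least 10 was found for 101 members (12.3%, 10.1 to 14.8%) against 4.36% of the other peaks (4.003 to 4.75%). In gene bodies, 11.9% of peaks were at the genome-wide rate and 14.8% had a rate of at least 10.

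A CpG island was overlapped by 469 of 820 members (57.2%, 53.7 to 60.6%). The share was 91.4% for all other new peaks, 96.2% at coding starts and 46.3% (43.1 to 49.6%) in gene bodies, so members lay between the peaks at starts and those in gene bodies. An island overlapped by a member could also cover a coding start, as beside IRX4, HELT and TLE3. Such islands were not counted apart. The 469 members in an island had a median fold of 6.70, a median width of 422 bp and 8.96 CpGs per 100 bp. The 351 outside islands had a median fold of 5.36, a width of 287 bp and 4.29 CpGs per 100 bp. At coding starts, peaks in an island had a median fold of 8.07, a width of 566 bp and 10.5 CpGs per 100 bp. A fold of at least 10 was reached by 95 members (11.6%, 9.48 to 14.0%), 84 of them in an island, and by 26.5% of the other peaks. Among peaks in gene bodies it was reached by 9.18%. A fold under 2 was listed for 15 members (1.83%, 1.03 to 3.00%), 11 of them outside islands. It was listed for 0.701% of the other peaks, for 1.73% in gene bodies and for 5.39% within 2000 bp of another start only.

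From 10 CpGs up, the median fold was higher with more CpGs in the 300 bp around the summit, among members and among the other peaks. Members with up to 9 CpGs there had a median fold of 5.23 (n = 70), those with 10 to 19 had 5.16 (n = 280), those with 20 to 29 had 6.62 (n = 262) and those with at least 30 had 6.91 (n = 208). The other peaks of the same classes had 6.03, 5.44, 7.09 and 8.55. With at least 30 CpGs, members had a median of 21 fragments over a background rate of 1.405, and the other peaks 18 over 0.825. At that CpG number members again had the lower fold with more fragments, over a higher background.

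The 10 members with the highest fold had 28 to 36 fragments over rates of 0.611 to 0.702, and all lay in CpG islands. The first, with a fold of 21.8 and 36 fragments, covered chr11:14402520-14403190 and lay 16468 bp upstream of RRAS2, a gene for a RAS-related GTPase. The second (chr1:148176252-148176878, fold 20.5) lay 25633 bp downstream of the start of PPIAL4H, in sequence found in at least 7 places of the genome. A pair of members, with folds of 19.97 and 18.8, lay in the same island of 120 CpGs 3895 and 4829 bp upstream of NAV2, which encodes a neuron navigator protein. A member 94811 bp upstream of HMGA2, a chromatin protein of embryonic cells, reached 19.2. Members 31290 bp downstream of the OSBPL7 start and 14469 bp downstream of the SMIM42 start both had a fold of 18.6. The member beside TLE3, a gene for a transcriptional corepressor, had 18.0 and lay in an island of 452 CpGs that also covers the TLE3 start, 2199 bp away. The last of the 10 had 17.7, at 44572 bp downstream of the start of SOST, the gene of the secreted WNT inhibitor sclerostin.

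Outside islands, the highest folds were 14.2 at chr5:171094589-171095287 near SMIM23, 12.6 near MDGA1, 11.8 near LMX1A, a gene for a LIM homeodomain factor, and 11.2 both near FGFBP1 and near PDE2A. These 5 members had 5.87 to 7.22 CpGs per 100 bp and lay 18876 to 37249 bp from the nearest island. The widest members were all in islands. They measured 1829 bp (21308 bp upstream of GPR132), 1704 bp (4194 bp upstream of PAX2) and 1678 bp (57174 bp downstream of the H3-3A start). Their folds were 13.3, 10.5 and 12.7. Only 5 members were at least 1500 bp wide (0.6098%, 0.198 to 1.42%) against 3.31% of the other peaks and 0.324% of peaks in gene bodies. A gap under 500 bp to another new peak was found for 47 members (5.73%) and for 17.03% of the other peaks.

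Seen from the islands, 439 of 10323 intergenic CpG islands held a new peak (4.25%, 3.87 to 4.66%). Of all 48662 islands on chromosomes 1 to 22, 20.3% did. At coding starts 43.4% of islands did, and in gene bodies 2.72%. The islands counted were built here on unmasked sequence and are a larger set than that of the paper. They were not separated by their methylation in untreated cells, which the paper did for its own islands. Those without a new peak can thus include islands that were already methylated. Intergenic islands were small, with a median of 23 CpGs against 68 at coding starts, so the shares were compared at like size. With 1 to 19 CpGs, 10 of 2580 intergenic islands held a new peak (0.388%, against 0.782% of all islands of that size). With 20 to 49 CpGs it was 164 of 6498 (2.52%, against 5.13% of all). With 50 to 99 CpGs it was 183 of 949 (19.3%, 16.8 to 21.9%, against 39.3% of all). With 100 to under 150 it was 56 of 215 (26.0%, 20.3 to 32.5%, against 64.2% of all), and with at least 150 the intergenic share was 32.1% (against 69.6% of all). In each class from 20 CpGs up, the intergenic interval lay below that of islands at coding starts, which held a new peak in 12.7%, 51.6%, 72.7% and 75.4%. From 50 CpGs up, it lay above the interval of gene body islands, whose shares were 10.6%, 14.6% and 13.0%.

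Among the 1245 intergenic islands of at least 50 CpGs, 265 held a new peak (21.3%, 19.04 to 23.7%). The share was higher in islands with denser CpGs. It was 6.33% (4.14 to 9.20%) where the observed over expected CpG ratio was 0.6 to 0.7, 24.0% at 0.7 to 0.8, 30.7% at 0.8 to 0.9 and 33.0% (26.6 to 39.9%) above 0.9. Islands with a new peak had a median ratio of 0.815 and those without 0.741, at median lengths of 784 and 822.5 bp. By distance to the nearest transcript start, the share was 19.8% at 2 to 5 kb, 22.97% at 5 to 20 kb and 20.8% at 20 to 100 kb, with overlapping intervals. Beyond 100 kb only 1 of 27 islands held a peak (3.70%, 0.0937 to 18.97%). Within 1 Mb of a chromosome end the share was 8.33% (3.88 to 15.2%), against 23.04% (20.4 to 25.9%) more than 5 Mb away. Whether islands of low ratio or near chromosome ends were already methylated in untreated cells was not tested.

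**Figure D1:**
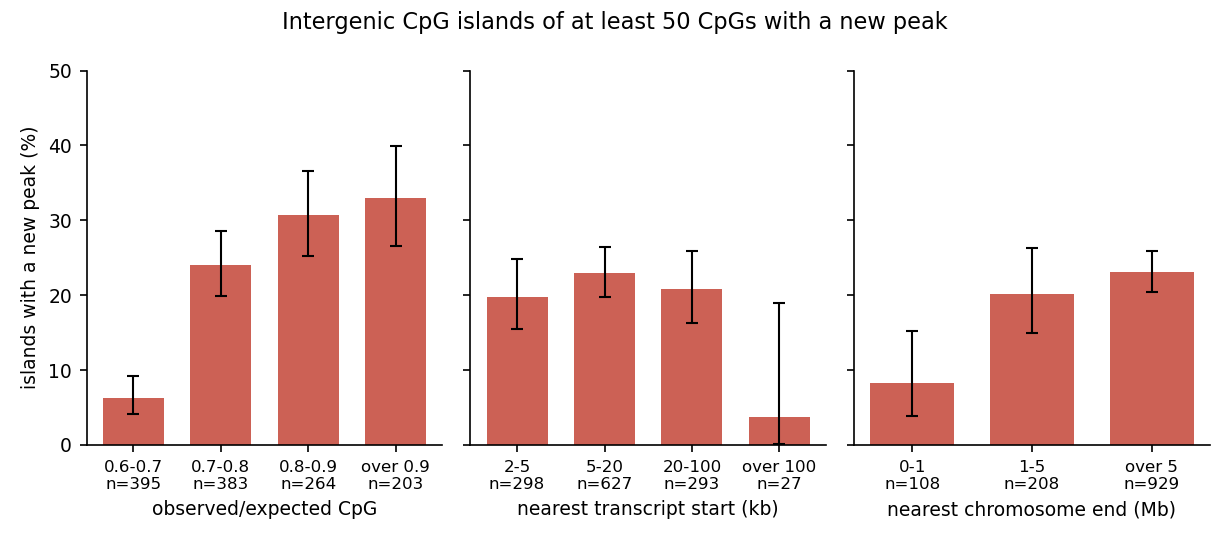
Share of intergenic CpG islands of at least 50 CpGs with a new peak (%), by the observed over expected CpG ratio, by the distance to the nearest transcript start in kb and by the distance to the nearest chromosome end in Mb. Error bars are 95% exact binomial intervals and n counts islands, which were not separated by their methylation in untreated cells. The share was 6.33% at the lowest ratios and 33.0% at the highest.

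The median distance to the nearest transcript start of any kind was 11206 bp (interquartile range 5819 to 22800.5 bp), and that to the nearest coding start was 28472.5 bp. The nearest start belonged to a protein-coding gene for 337 members (41.1%), to a lncRNA gene for 240 (29.3%) and to a processed pseudogene for 96 (11.7%). Relative to the nearest protein-coding gene, 486 members (59.3%) lay on the upstream side and 334 downstream. The rule leaves out gene bodies, so a downstream member must lie beyond the gene. No share of intergenic sequence was counted beside it. An island was overlapped by 108 of 170 members (63.5%) at 2000 to 5000 bp from a start and by 112 of 220 (50.9%) at 20000 to 100000 bp, with median folds of 5.88 and 6.21. Members made up between 2.91% of the new peaks of a chromosome, on chromosome 18, and 8.69%, on chromosome 10. A gap of at least 10 kb in the assembly lay within 1 Mb of 204 members (24.9%, 21.95 to 28.0%) and of 15.1% of the other peaks. By class, it was 13.9% at coding starts, 18.4% in gene bodies and 25.96% within 2000 bp of another start only. Members were thus like the last of these classes in their nearness to gaps. A chromosome end lay within 1 Mb of 24 members (2.93%, 1.88 to 4.32%) and of 3.44% of the other peaks. Just above the distance limit lay a member 2004 bp from the start of a Y RNA gene, with a fold of 7.86, and a member 2032 bp from that of a lncRNA gene, with 8.33. Their nearest coding starts were those of SLC27A3 at 4811 bp and CACNA1B at 71639 bp. Just below it, and so not a member, lay a peak at 1980 bp from SIPA1 with a fold of 5.64. The bodies of other gene types, mostly pseudogenes, overlapped 17 members.

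Genes for developmental regulators were counted among the nearest genes. By a list of gene symbols from the HOX, PAX, SOX, FOX, GATA, TBX, LHX, NKX, IRX, WNT and similar families, which makes up 1.49% of coding genes, the nearest coding gene was a developmental one for 66 members (8.05%, 6.28 to 10.1%), with 42 genes in all. The share was 9.81% (7.27 to 12.9%) for members in an island and 5.70% (3.51 to 8.66%) for those outside. At coding starts it was 2.22% (1.94 to 2.53%), and in gene bodies 4.64% (3.38 to 6.20%). Of the 1245 intergenic islands of at least 50 CpGs, with or without a peak, 109 were nearest to a developmental gene (8.76%, 7.24 to 10.5%), a share close to that of the members in an island of any size. Of these, 28 held a new peak (25.7%, 17.8 to 34.9%), an interval that includes the 21.3% of all such islands. Zinc finger genes were nearest to 22 members (2.68%), against 2.17% of the other new peaks and 2.88% of coding genes. Olfactory receptor genes were nearest to 4 (0.488%, against 0.101% and 2.15%), ribosomal protein genes to 4 (0.488%, against 0.160% and 0.401%) and protocadherin genes to 2 (0.244%, against 0.101% and 0.328%). Some members are named here after their values were seen. FOXD2 was nearest to 2 members, 69886 and 155205 bp away, the higher with a fold of 14.9, and DLX2, a regulator of forebrain interneurons, to 2 members 3496 and 5504 bp away, the higher with 10.6. Single members had folds of 11.2 at 38590 bp from the start of OLIG1, which specifies oligodendrocytes, 9.84 at 9811 bp from BARHL2, 9.21 at 16085 bp from POU4F2, 8.82 at 25490 bp from WNT11 and 7.45 at 273912 bp from GATA3. Lower values were found nearest to SOX8 (1.98 and 3.55) and BARX1 (2.06 and 2.62). FOXD4L genes, near-identical copies of each other, accounted for 6 of the 66.

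PAX2, which encodes a paired box factor needed for the kidney and the optic nerve, had 9 members on its upstream side between 4194 and 81074 bp from its start, over 77287 bp (chr10:102413673-102490959). SHCBP1 was the nearest coding gene of more members, 10, all of them GGAAT repeats 215657 to 260007 bp from its start. The folds at PAX2 were 10.6, 6.70, 9.37 and 4.65 within 1 island of 215 CpGs, the farthest from the gene, and 16.1, 12.4, 3.77, 6.65 and 10.5 going on toward the gene. The fold was lowest in the member that lay outside islands and had 16 CpGs, and highest in a member with 53 CpGs in an island of 52. Background rates were 0.611 to 3.21, and each of the 9 aligned to 1 place in the genome. IRX4, an Iroquois homeobox gene, followed among developmental genes with 4 members (fold 2.35 to 9.21), 1 of them in an island. In all, 700 genes were nearest to a member, and 612 of them to 1 only.

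**Figure D2:**
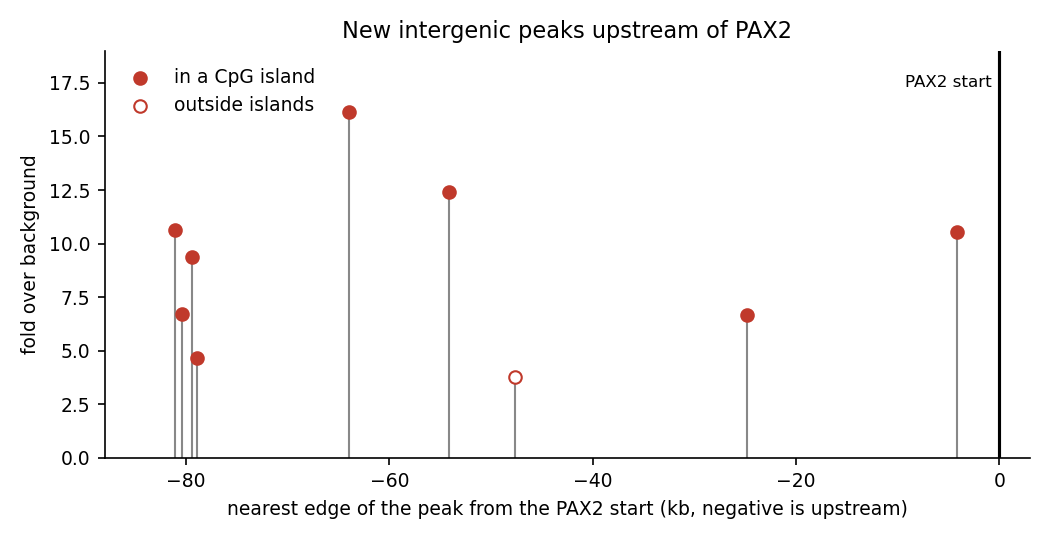
Fold over background of the 9 new intergenic peaks upstream of PAX2, by the distance of the nearest edge of the peak from the PAX2 start in kb, with negative values upstream. Filled points lie in a CpG island and the open point does not. The folds run from 3.77 to 16.1, and 8 of the 9 lie in islands.

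Repeated sequence made up a part of the members. The 300 bp around the summit aligned to at least 2 places in the genome, at 90% identity over 80% of the length, for 173 of 816 members whose place was found (21.2%, 18.4 to 24.2%), and to at least 10 places for 107 (13.1%). Among 1 in 10 of the other peaks, at least 2 places were found for 84 of 1185 (7.09%, 5.69 to 8.70%). At least 10 places were found for 23 of these 1185 (1.94%, 1.23 to 2.90%). Peaks in gene bodies were not counted apart in this search. Members in several places had a median fold of 4.54 over a background rate of 2.98, and the 643 in 1 place 6.24 over 1.58. How reads from such repeats were placed by the aligner was not tested. Members were also compared with each other, and those alike at 75% identity over 150 bp were joined into families. Such families held 189 members (23.05%), of which 180 were in 5 families of at least 10.

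The largest family had 110 members on 20 chromosomes. Of these, 73 carried CCTGTAATC, letters of the Alu consensus, on either strand, 27 overlapped a CpG island, and 64 were found in at least 10 places. Their median fold was 5.52 (2.90 to 8.79), with 16 fragments over a rate of 2.08. Over all members, 79 carried these letters (9.63%, 7.70 to 11.9%), against 2.08% of the other peaks and 12.6% (10.6 to 14.9%) of those in gene bodies. A second family of 26 members on 15 chromosomes had folds of 1.86 to 7.54 and background rates of 0.611 to 24.3. The third, of 21 members on 12 chromosomes, was found in a median of at least 487 places, and 7 of its members were tandem repeats. It had a median fold of 2.49 over a background rate of 14.6. KLRG2 was the nearest gene of its highest member, with a fold of 10.1, named after the values were seen.

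The fourth family had 12 members with repeated GGAAT units on chromosomes 10 and 16, with 107.5 fragments in the median over a background of 45.8, and a median fold of 2.17. It included a run of 10 members over 44680 bp on chromosome 16 (chr16:46389569-46434248), the densest group of all, which began 3768 bp from a gap in the assembly. Their folds were 1.83 to 2.89 with 52 to 165 fragments, none lay in an island, and the nearest coding gene was SHCBP1 at 215657 bp or more. The member with the most fragments, 416 over a background of 285.9 and so with the lowest fold of all (1.45), was a GGAAT repeat near ZNF33B on chromosome 10. It was followed by a pair of members near NUPR2 on chromosome 7, with 390 and 355 fragments and folds of 1.47 and 1.52. A further group of 5 members within 100 kb, between SOX8 and SSTR5 on chromosome 16, had folds of 1.98 to 3.55 over rates of 5.02 to 33.3.

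The fifth family combined many CpGs with a low background. Its 11 members on chromosomes 2, 7 and 9 were all in CpG islands, held a median of 41 CpGs in 300 bp, and had a median fold of 7.67 (4.97 to 19.6) over a background of 0.685. It contained the member near RP11-685N3.1, and the nearest genes of others were FOXD4L2, FOXD4L4 and FOXD4L5. Both members farthest from any coding start, at 1692764 and 1459097 bp, belonged to it, with folds of 4.97 and 6.21. The farthest member outside islands lay near SPIDR, 1166330 bp from its start, and had 5 CpGs and a fold of 4.22 with 12 fragments. It was also the member farthest from a transcript start of any kind, at 453571 bp.

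Without the families, 631 members remained. Of these 405 lay in an island (64.2%, 60.3 to 67.9%), the median fold was 6.28 and the background rate 1.62. The 226 outside islands and families had a median fold of 5.45 and 4.27 CpGs per 100 bp.

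Sites that the sgRNA could bind were looked for in the members as a 20-base match next to an NGG. With up to 4 mismatches there were 0 in 820 members, which allows a share of up to 0.366% (3 counts of the total) or 0.449% by the exact interval, and 4 in 11847 other peaks. With 5 mismatches there was 1 member, near KCNK17 on chromosome 6, with a fold of 6.49, against 50 other peaks (0.422%, 0.313 to 0.556%) with up to 5.

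Short motifs were counted in the 300 bp around the summit on both strands. The SP1 letters GGGCGG were present in 484 members (59.0%, 55.6 to 62.4%), in 73.4% of all new peaks and in 57.9% of those in gene bodies. In members in an island the share was 71.6%, and outside islands 42.2%. The E-box CACGTG was present in 46 members (5.61%, 4.14 to 7.41%) and in 6.15% of all. A CTCF core was present in 17.1% (14.6 to 19.8%) and in 17.8% of all. An NRF1 motif was present in 2.07% (1.21 to 3.30%), in 3.77% of all and in 2.16% of peaks in gene bodies. A match is a string of letters and not a measured binding site.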

How the data were processed

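MBD-seq was done on 4 conditions, and only the list of new peaks of the WT library was used. The authors mapped reads to hg19 with Bowtie2, and the peak caller's settings are not given in the sources used here. The submitters' processing notes name MACS2, deepTools and FastQC. The deposited score is 10 times the −log10 q, rounded down, and was not used. The deposited fold is a ratio of fragments at the summit to a background, and the authors' −log10 p and q values are per peak. Another deposited column gives the summit. The smallest −log10 q was 2.00. Depth is not in the list, and precision rests on a median of 19 fragments per member.

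Fragments and background were recovered by taking the fold as (fragments + 1)/(rate + 1) and the p-value as Poisson, with a largest misfit of 0.000358 in −log10 p over 12667 peaks. All these peaks ended within the GRCh37 chromosome lengths. CpG islands were built on the unmasked GRCh37 sequence, scoring a CpG with 17 and any other base with -1 and keeping segments over 200 bp, with at least 50% GC and an observed over expected ratio over 0.6. An overlap of 1 bp counted. Places in the genome were searched with blastn 2.17.0, listing up to 25 matches per chromosome, for all members and 1 in 10 of the other peaks, and no place was returned for 4 members. A tandem repeat was a window of which at least 60% matched itself at a shift of 10 to 100 bp.

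Members, lists and rules were chosen with earlier results of these data known. Members named were the 10 with the highest fold, the 5 highest outside islands, the 3 widest, the 3 farthest from a coding start, the 3 with most fragments, the 3 densest groups within 100 kb and the 2 on either side of the limit. 1 of the latter is not reported here. With 1 library per condition no test was made and no p-value is given. Where 0 were found, 3 counts set the upper limit. Alternatives changed the distance, the gene types, the thresholds, the island criteria, the overlap and the uniqueness of the sequence. Steps were tested on simulated data. The software was Python 3.11.15, networkx 3.6.1, numpy 2.4.6, scipy 1.17.1, pandas 2.3.3, matplotlib 3.10.9 and numba 0.67.0.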

Additional observations from a re-analysis of the deposited data

Results flagged for a closer look

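The X chromosome was outside the rule and carried 125 new peaks. Of these, 12 met the same conditions of gene body and distance (9.60%, 5.06 to 16.2%), with a median fold of 5.95 and a range of 2.52 to 9.93. They are listed here because they lie in data that no comparison above used.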

How the results depend on the processing

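Of 67 values under alternatives, 36 stayed within the 95% interval of the reported value (for the number of members, within 1.5 times) and 31 did not. The cause of the shifts was not tested, except where the alternative itself removes peaks or islands. Beyond 10000 bp from a start there were 452 members, with 52.2% in an island, 6.94 CpGs per 100 bp and a new peak in 3.37% of intergenic islands. With the bodies and starts of protein-coding genes only there were 1784 members, with 70.7% in an island, a median fold of 6.25, 8.36 CpGs per 100 bp and a new peak in 6.57% of islands. Peaks with at least the median fold of the list gave 263 members, 73.8% in an island, a fold of 9.23, a background rate of 0.694, 8.22 CpGs per 100 bp and 1.78% of islands. That the fold was higher here was set by the limit itself, and this value is among the 31. A −log10 q of at least 10 gave 264 members, 73.1% in an island, a fold of 9.22, a rate of 0.931, 8.40 CpGs per 100 bp and 1.79% of islands. An overlap of at least 50% lowered the share of islands with a peak to 3.14%. Islands of at least 500 bp, 55% GC and a ratio of 0.65 put 33.8% of members in an island and a new peak in 20.6% of intergenic islands. Members that align to no other place had 60.8% in an island, a fold of 6.24 and a rate of 1.58, and those with an island a fold of 6.70. Chosen after seeing the data, leaving out sequence families gave 64.2% in an island, a fold of 6.28 and 7.91 CpGs per 100 bp. The summit and the sequence alternatives were not run for the islands. No paired analysis was possible because no condition has a second library. The median of 19 fragments and the single library limit all values. Peaks absent from the list were not measured as unmethylated, and islands already methylated in untreated cells may be missing from it. A background rate of at least 10 was still found for 48 of 469 members in an island (10.2%).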
